A study of Rattus norvegicus with 7 samples.

Results

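The endoplasmic reticulum (ER) genes described here encode the machinery that folds secreted proteins, responds to misfolded ones and ships the finished ones towards the Golgi. They were chosen by name: 38 symbols were listed, and 36 were found among the 20660 genes of the deposited table, each on 1 line. The 2 others are not analysed here. The RNA came from the synovium, the soft lining of the joint, of 7 male SD rats aged 3 months, with 1 library per rat. The 3 control rats, numbered 2 to 4, were left without treatment. The 4 MIA rats, numbered 1 to 4, were given sodium pentobarbital into the abdomen and then 0.1 mL of MIA at 10 mg per kg into the right knee. MIA is not expanded in the labels; in rat knees it is most often monosodium iodoacetate, which blocks glycolysis. Synovium was taken 4 weeks later, so the comparison describes an established state after 1 chemical injury.

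Secreted and membrane proteins enter the ER through the Sec61 channel, lose their signal peptide, and fold with the help of the chaperone BiP, the lectins calnexin and calreticulin and a set of disulfide isomerases. Misfolded proteins are sent back to the cytosol for degradation, and folded cargo leaves in vesicles coated with COPII, while KDEL receptors return escaped chaperones from the Golgi. When folding falls behind, the sensors ATF6, IRE1 (gene Ern1) and PERK start the unfolded protein response, which raises chaperones and, through ATF4 and CHOP (gene Ddit3), can favour cell death. In the joint lining, fibroblasts use this route for collagen, hyaluronan-binding proteins and lubricin.

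The libraries held 13870822 to 16261089 counts, and the 36 genes were well covered, the lowest count of any of them in a library being 84 (Sdf2l1). Levels are given as CPM, counts relative to library sizes scaled by TMM, a method that sets the bulk of genes to equal levels. Lubricin (Prg4), a marker of the synovial lining, was present in all libraries, at 185 to 4837 CPM. The shares of several cell type markers differed between the groups. Skeletal muscle markers took 16.4% ± 1.25 of the counts (SD, n = 3) in controls and 2.95% ± 2.28 (SD, n = 4) in MIA rats, with 0.0604% in MIA 2 and 5.63% in MIA 3; 6 of 25 such genes passed the test as lower and 0 as higher. Fibroblast markers took 0.441% ± 0.15 and 6.81% ± 1.6, and 6 of 8 rose. Cartilage cell markers took 0.00138% ± 0.000451 and 0.0683% ± 0.0704, from 0.00954% in MIA 3 to 0.17% in MIA 2, and 4 of the 6 tested rose. Markers of bone-forming cells took 0.00146% ± 0.000746 and 0.00563% ± 0.00239, and 2 of 6 rose. Macrophage markers took 0.0316% ± 0.00549 and 0.123% ± 0.0384, and 7 of 8 rose. Markers of plasma and B cells, which are rich in ER, took 0.000529% ± 8.58e-05 and 0.00291% ± 0.00351, and 2 of the 7 tested rose. Every MIA library, from 0.000862% to 0.00814% in MIA 3, lay above every control, from 0.000436% to 0.000606%. For these counts of markers, 21.3% of all tested genes passed as higher and 19.6% as lower, and the 6 of 25 muscle genes lay near the latter. The part of these markers in the results below was not tested. In such bulk tissue a change in the number of cells of a type and a change in RNA per cell cannot be told apart.

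Most of the ER genes were higher in MIA synovium. Of the 36, all of which passed the filter on low counts, 24 rose and 3 fell, and 9 did not pass the test (edgeR quasi-likelihood test, adjusted p under 0.05 over 14054 genes). Among all tested genes 40.9% passed, 21.3% as higher and 19.6% as lower. A rise of at least 2-fold was found for 21 of the 36 genes, against 15.6% of all genes. Libraries of the 2 groups did not overlap for 27 genes that were higher in MIA and 4 that were lower, and 24.8% and 24.4% of all genes had such a separation. The median log2 change was 1.12, against 0.07 over all tested genes. The summed counts of the 36 genes made up 0.334% ± 0.0461 of the library in controls (SD, n = 3) and 0.899% ± 0.184 in MIA rats (SD, n = 4), and every MIA library, from 0.698% to 1.11%, lay above every control, from 0.285% to 0.376%.

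**Figure D1:**
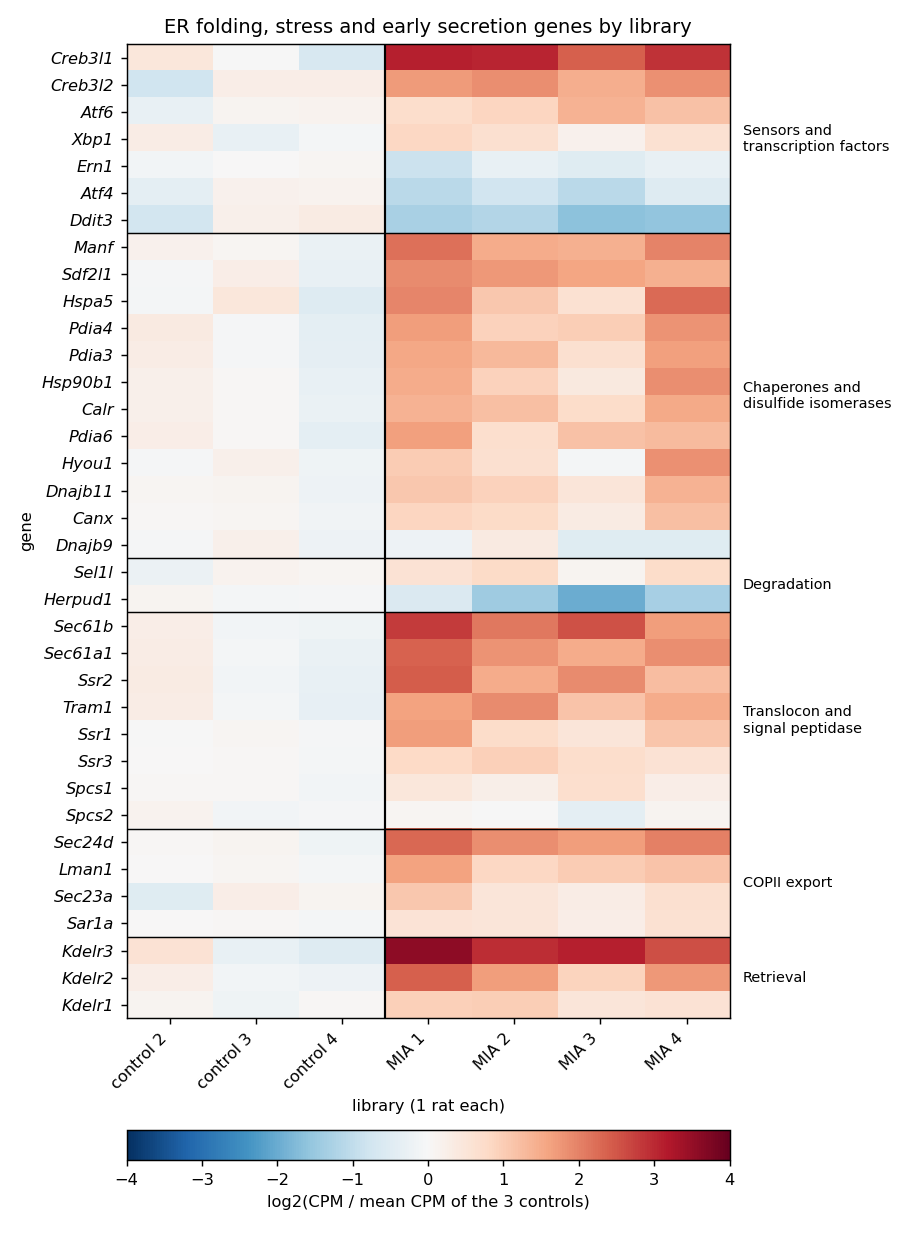
Heat map of the 36 genes (rows, grouped by role) in the 7 libraries (columns), coloured by log2 of the CPM divided by the mean CPM of the 3 controls. Most rows turn red in all 4 MIA libraries, while Ern1, Atf4, Ddit3 and Herpud1 turn blue.

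Scaling set how many genes counted as higher, but hardly the place of these genes relative to the rest. Plain library totals put the median over all genes at a log2 change of 0.51 in place of 0.07, and took the share of calls that were higher from 52.1% to 78.0% (75.5% and 76.7% with limma on log2 FPKM with pseudocounts of 1 and 0.1). On that scale 30 of the 36 genes rose and 2 fell. Their median lay 1.05 above that of all genes with library totals and 1.04 above it with TMM. With the muscle marker level as a covariate 15 rose and 1 fell, at a median change of 1.25. Over all 14054 tested genes 1544 then rose and 1247 fell. The muscle level itself separated the groups, at 11.9 to 12.3 log2 CPM in controls and 3.36 to 10.1 in MIA rats. This covariate and the treatment therefore cannot be fully told apart. Without control 4 14 of the 36 genes rose and 2 fell, at 1.08, beside 1642 and 1757 of all 14482 genes then tested.

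Sensors and transcription factors moved in opposite directions. The rises were led by Creb3l1 (ENSRNOG00000005413), an ER-anchored factor known from mouse bone for switching on type I collagen. It stood at 21.8, 15.6 and 10.2 CPM in control 2, 3 and 4 and at 137, 129.7, 83.5 and 118 CPM in MIA 1 to 4. The lowest MIA rat thus had over 3 times the level of the highest control. The log2 change was 2.88 ± 0.31 (SE), a 7.37-fold rise (adjusted p = 0.00095). Its relative Creb3l2, which in mouse cartilage drives the COPII gene Sec23a, was at 6.93, 14.3 and 14.5 CPM in controls and at 39.1, 43.1, 32.7 and 42.2 CPM in MIA rats. The MIA values were tightly grouped, and the rise was 3.3-fold (1.72 ± 0.28, adjusted p = 0.00276). Atf6, the sensor that is cut in the Golgi to become a transcription factor, rose 2.08-fold, from 13.3, 17.7 and 17.9 CPM to 26.4, 29.7, 42.6 and 36.5 CPM (1.05 ± 0.22, adjusted p = 0.00681). For each of these 3 genes the groups did not overlap.

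The factors of the PERK branch were lower. Ddit3, which encodes CHOP, a factor tied to cell death under lasting stress, was at 27.4, 52.1 and 57.2 CPM in controls and at 18.5, 20.3, 14.6 and 15.1 CPM in MIA rats. All MIA values lay below all controls, and control 2 was the lowest control by a wide margin. The fall of Ddit3 was 2.66-fold (−1.41 ± 0.26, adjusted p = 0.00481). Atf4, its activator, which is controlled mainly at translation, was at 312, 469.6 and 457 CPM in controls and at 197, 241, 197 and 286 CPM in MIA rats. Again the groups did not overlap in CPM, with control 2 nearest to the MIA rats, but on the deposited FPKM MIA 4 (172) lay above control 2 (145). The fall of Atf4 was 1.79-fold (−0.84 ± 0.24, adjusted p = 0.0254). That call ended without control 3 (adjusted p = 0.0989), without control 4 (0.0923) or without MIA 1 (0.0632), with the muscle covariate (−0.89, 0.107), and with library totals (−0.39, 0.202), where Atf4 still lay 0.90 below the median of all genes. The 2 remaining genes of this role belong to the IRE1 branch and did not pass. Ern1 was at 29.8 to 33.9 CPM in controls and 17.7 to 25.9 CPM in MIA rats (−0.47 ± 0.18, adjusted p = 0.0624). Xbp1, whose mRNA IRE1 splices, was at 58.0 to 88.4 and 80.2 to 127 CPM (0.59 ± 0.22, adjusted p = 0.0632). Gene counts do not separate spliced from unspliced Xbp1. Under library totals Xbp1 rose (1.004 ± 0.23, adjusted p = 0.00865), while Ern1 was at −0.02 ± 0.19 (0.942). Ern1 passed as lower with median-of-ratios factors (−0.49, adjusted p = 0.0499) and with DESeq2 (−0.49, 0.0449). Xbp1 also passed as higher with DESeq2, with both limma fits of log2 FPKM, without control 2 and without MIA 3.

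**Figure D2:**
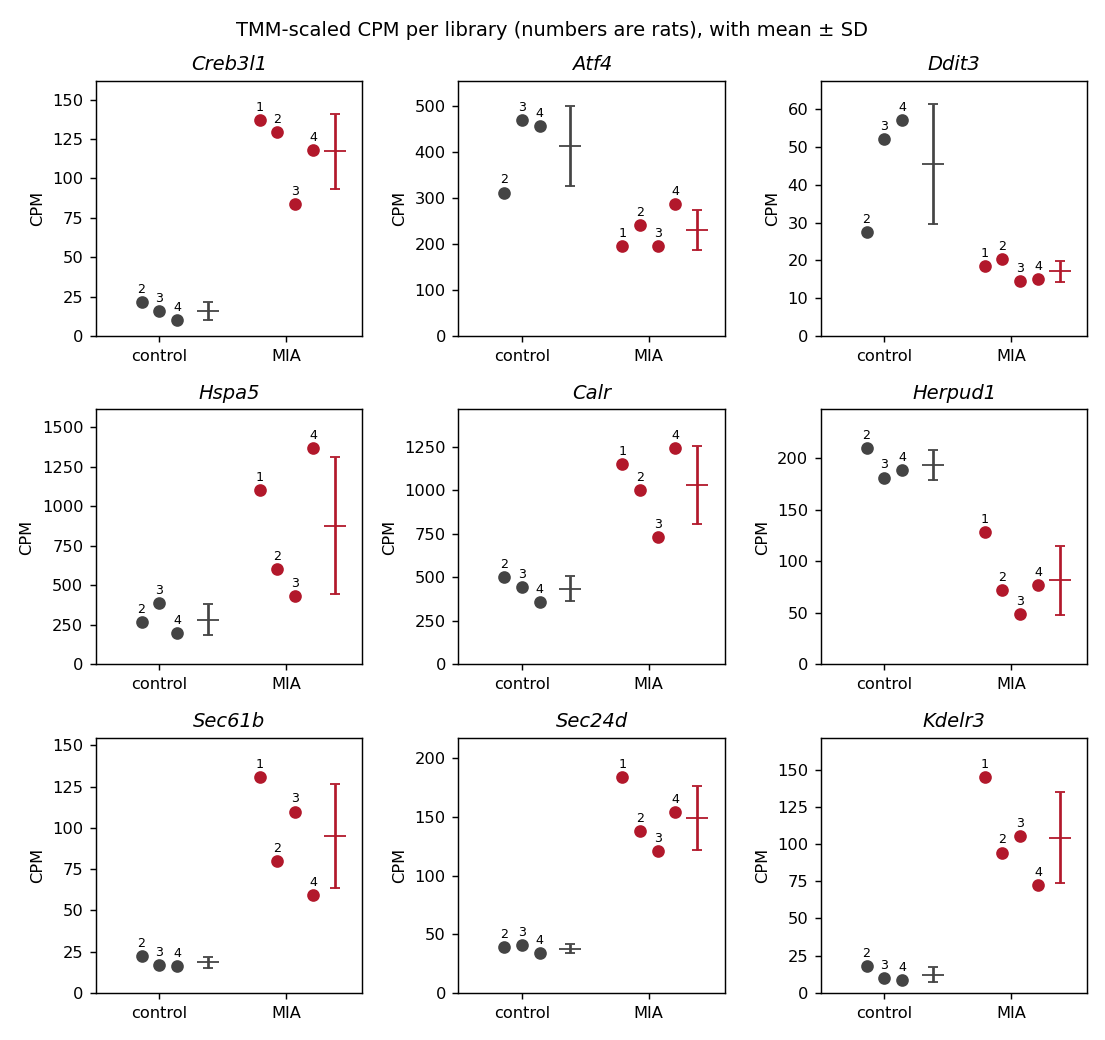
CPM (linear axes from 0) of 9 genes in each control and MIA rat, with rat numbers beside the points and the group mean ± SD (n = 3 and 4) to the right of each group. The groups do not overlap in any of the 9 panels; Atf4, Ddit3 and Herpud1 are lower in MIA, and the other 6 are higher.

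Of the 12 chaperones and disulfide isomerases 10 rose and none fell. Hspa5 (ENSRNOG00000018294) encodes BiP, the main ER chaperone and the brake on all 3 sensors. It was at 266, 387 and 197 CPM in control 2, 3 and 4 and at 1105, 602, 433 and 1365 CPM in MIA 1 to 4. MIA 3 lay just above control 3, while MIA 1 and MIA 4 stood far above, so the 3.09-fold rise (1.63 ± 0.47, adjusted p = 0.0243) carried a wide error. Hsp90b1, the ER member of the HSP90 family, had the same order among the MIA rats, at 368, 329.9 and 258 CPM and then 885, 609.8, 415 and 1151 CPM (2.4-fold, adjusted p = 0.0295). Calr encodes calreticulin, a lectin that holds glycoproteins while they fold. It went from 501, 446 and 359 CPM to 1152, 1002, 731 and 1241 CPM, a 2.37-fold rise (1.24 ± 0.30, adjusted p = 0.0118). Its membrane-bound partner calnexin (Canx) rose 1.77-fold (0.82 ± 0.26, adjusted p = 0.0345).

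Manf, a small secreted protein that is made under ER stress and binds BiP, was at 36.9, 34.4 and 27.1 CPM in controls and 149, 92.3, 87.6 and 131 CPM in MIA rats (3.51-fold, 1.81 ± 0.25, adjusted p = 0.00169). Sdf2l1, part of a complex with the BiP co-chaperone Dnajb11, went from 8.19, 10.2 and 6.87 CPM to 31.2, 27.9, 25.1 and 22.7 CPM (3.17-fold, 1.67 ± 0.21, adjusted p = 0.00139). The lowest MIA value of Sdf2l1 was over 2 times its highest control value. Dnajb11 itself rose 2.01-fold (adjusted p = 0.00893). The disulfide isomerases Pdia3, which works on glycoproteins with calnexin and calreticulin, Pdia4 and Pdia6 rose 2.51-fold, 2.64-fold and 2.34-fold (adjusted p = 0.0122, 0.00883 and 0.0113). The exceptions were Hyou1, which resets BiP between cycles, and Dnajb9, a BiP co-chaperone that restrains IRE1. Hyou1 was at 77.0, 93.0 and 70.8 CPM and then 162, 126, 75.7 and 284 CPM, with MIA 3 inside the control range (1.011 ± 0.41, adjusted p = 0.0785); it passed under library totals (adjusted p = 0.0208), DESeq2 (0.0447), both FPKM fits (0.0272 and 0.0253) and without MIA 3 (0.0216). Dnajb9 was at 29.3 to 39.0 CPM and 24.0 to 43.6 CPM, fully overlapping (−0.16 ± 0.24, adjusted p = 0.627), and its sign changed with library totals (0.27).

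Several chaperone calls ended when 1 library was left out. Calls over all genes also became fewer, from 5751 to 4765, 3628 and 3399 without control 2, 3 and 4. Calls for Manf, Sdf2l1 and Pdia4 held without any 1 library. Those for Calr and Pdia3 ended without control 3 or control 4, those for Pdia6 and Dnajb11 without control 4, that for Hspa5 without control 2 (adjusted p = 0.0775), control 4 (0.101) or MIA 1 (0.0538), and those for Hsp90b1 and Canx without any control, MIA 1 or MIA 4. The call for Canx also ended with no filter on low counts. With the muscle covariate the calls for Hspa5, Hsp90b1, Calr, Canx, Pdia3 and Dnajb11 ended at log2 changes of 1.98, 1.45, 1.21, 0.83, 1.263 and 1.03. A replicate block by rat number ended the calls for Hspa5, Hsp90b1, Calr, Canx, Pdia3, Pdia4 and Pdia6. The labels do not give this pairing, and 4555 calls over all genes then remained.

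The promoters of several of these genes carry ER stress elements, and the stretches that hold them are shown because genes with the same element moved differently. The elements searched were the ER stress response element ERSE, made of CCAAT, any 9 bases and CCACG, to which ATF6 is known to bind together with the factor NF-Y, and its compact form ERSE-II, made of ATTGG, any base and CCACG, on both strands, in windows from 250 bases before to 50 after the gene start (RefSeq, build GRCr8). Windows were found for 26 of the 36 genes. ERSE was present in 5 of the 26 and in 0.0765% of 27457 promoters of the same length, and ERSE-II in 3 and 0.0546%. Both elements of Hyou1 and the second of Hsp90b1 and that of Calr lie on the opposite strand. Capitals mark the elements, and the sequences are given along the strand of the gene.
Hspa5 (chr3:38452961-38453003, plus strand): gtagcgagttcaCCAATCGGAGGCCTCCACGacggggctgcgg
Hsp90b1 (chr7:23012335-23012481, minus strand): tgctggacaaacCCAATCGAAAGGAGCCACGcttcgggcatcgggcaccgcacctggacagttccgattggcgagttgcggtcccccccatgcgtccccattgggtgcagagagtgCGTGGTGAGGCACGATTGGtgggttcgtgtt
Calr (chr19:40213123-40213165, plus strand): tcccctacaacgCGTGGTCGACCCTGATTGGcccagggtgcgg
Canx (chr10:35158057-35158099, minus strand): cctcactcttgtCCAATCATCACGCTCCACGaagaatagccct
Xbp1 (chr14:84604546-84604588, plus strand): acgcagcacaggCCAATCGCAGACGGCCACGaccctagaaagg
Hyou1 (chr8:53602682-53602816, plus strand): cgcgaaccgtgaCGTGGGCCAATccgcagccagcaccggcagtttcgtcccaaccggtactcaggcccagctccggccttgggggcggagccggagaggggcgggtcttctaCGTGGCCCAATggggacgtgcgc
Herpud1 (chr19:10614809-10614843, minus strand): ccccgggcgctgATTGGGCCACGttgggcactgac
The ERSE of Hspa5 begins 43 bases before the gene start and that of Xbp1 65 bases before it. Of the genes with an ERSE, Hspa5, Hsp90b1, Calr and Canx rose, and Xbp1 did not pass. Of those with an ERSE-II, Herpud1 fell, Hyou1 did not pass and Dnajb11, where the element spans the gene start, rose. The log2 changes of Xbp1 (0.59) and Hyou1 (1.011) were also positive, and that of Hyou1 was close to that of Dnajb11 (1.004). Among the 16 genes that rose and had a window, 11 held neither element, Creb3l1, Sec61b and Kdelr3 among them. The element TGACGTGG, known as UPRE, was found in 3 of the 26 windows (Hyou1, where it overlaps the first ERSE-II, Sec23a and Kdelr3) and in 0.637% of all promoters. TGATGNAA, a core to which ATF4 and CHOP can bind, was found in Herpud1 only of the 26 and in 3.82% of all promoters. A match describes the letters of these windows and not a site in use.

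Degradation genes split. Herpud1, an ER membrane protein that helps assemble the degradation complex and is a usual marker of ER stress, was at 209.7, 181 and 189 CPM in control 2, 3 and 4 and at 129, 72.4, 48.8 and 76.8 CPM in MIA 1 to 4. All MIA rats lay below all controls, MIA 3 farthest. The fall was 2.37-fold (−1.24 ± 0.30, adjusted p = 0.0132). That call held without any 1 library and ended with the muscle covariate (−1.22, adjusted p = 0.1005). Sel1l, the scaffold of the degradation complex, was at 64.6 to 83.4 CPM and 82.8 to 129 CPM (0.57 ± 0.21, adjusted p = 0.0559), and it passed under library totals (1.012, adjusted p = 0.00433).

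Counts of Hspa5 can be set against those of these stress genes within each library, where scaling plays no part. Such a ratio does not tell which of its genes moved. These ratios were chosen after the values were seen and were not tested. In controls 2, 3 and 4 there were 9.7, 7.44 and 3.45 counts of Hspa5 for each count of Ddit3, and in MIA 1 to 4 there were 59.8, 29.6, 29.8 and 90.2. For each count of Herpud1 there were 1.27, 2.13 and 1.04 counts of Hspa5 in controls and 8.59, 8.31, 8.87 and 17.8 in MIA rats. Both ratios separated all MIA rats from all controls, which follows from the separation already seen in the CPM of each of these genes. The muscle marker share was 2.92%, 0.0604%, 5.63% and 3.19% in MIA 1 to 4, and its part in these ratios was not tested.

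**Figure D3:**
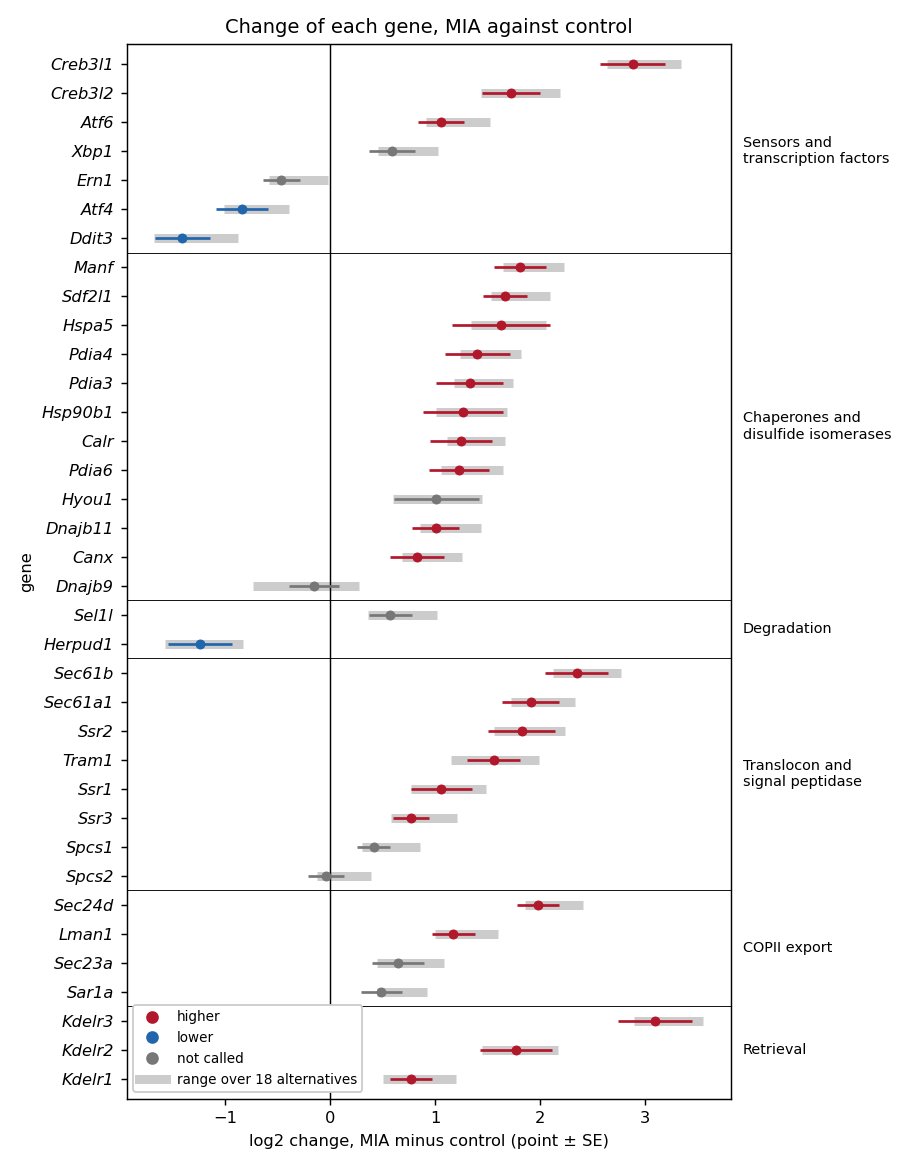
Log2 change of each gene between MIA and control (points, ± SE from edgeR), coloured by call, with grey bars for the range over 18 alternative settings. Kdelr3, Creb3l1, Sec61b and Sec24d lie farthest to the right, and the grey bars cross 0 for Dnajb9 and Spcs2.

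The channel through which new proteins enter the ER was higher. Of 8 translocon and signal peptidase genes 6 rose and none fell. Sec61b (ENSRNOG00000006345), the small beta subunit of the channel, was at 22.5, 17.1 and 16.4 CPM in controls and at 131, 80.2, 109.9 and 59.6 CPM in MIA rats (5.09-fold, 2.35 ± 0.30, adjusted p = 0.00142). Sec61a1, which forms the pore, was at 94.2, 72.5 and 63.4 CPM and then 394, 267, 215 and 276 CPM (3.75-fold, 1.91 ± 0.27, adjusted p = 0.00191). In both genes every MIA rat had more than 2 times the highest control level. Tram1, a membrane protein beside the channel, rose 2.94-fold (adjusted p = 0.00292), from 61.3 to 94.5 CPM in controls to 166 to 285 CPM in MIA rats.

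Ssr1, Ssr2 and Ssr3 encode subunits of the TRAP complex, which sits at the channel and helps some proteins through it, and all 3 rose. Ssr2 went from 52.8, 39.2 and 34.2 CPM to 224, 117, 156 and 99.7 CPM, a 3.54-fold rise (1.83 ± 0.32, adjusted p = 0.00371). Ssr1 rose 2.08-fold and Ssr3 1.71-fold (adjusted p = 0.0198 and 0.00937), the latter from a narrow 101.1 to 110.4 CPM to 160.1 to 208 CPM. The call for Ssr1 ended without any 1 control (adjusted p = 0.0624 to 0.0788), and that for Ssr3 without control 4 (0.0522). Both calls also ended with the muscle covariate (adjusted p = 0.0668 and 0.101). The fourth subunit, Ssr4, is on the wider list and did not pass (0.67 ± 0.28, adjusted p = 0.0916); it is named here after its values were seen. Both signal peptidase subunits among the 36 genes, Spcs1 and Spcs2, did not pass. Spcs1 was at 54.2 to 60.4 CPM in controls and 68.2 to 92.2 CPM in MIA rats (0.41 ± 0.16, adjusted p = 0.0709). Spcs2 was at 79.9 to 95.2 and 66.2 to 92.4 CPM (−0.04 ± 0.17, adjusted p = 0.857), with a positive sign under library totals (0.38). Spcs1 passed there, at 0.85 (adjusted p = 0.00843).

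Of 4 COPII export genes 2 rose and none fell. Sec24d, a cargo-binding coat subunit whose loss in fish and humans disturbs collagen export and the skeleton, was at 38.9, 40.8 and 33.8 CPM in controls and 184, 138, 121 and 154 CPM in MIA rats. The groups lay far apart with little spread inside either, and the 3.95-fold rise (1.98 ± 0.20) had an adjusted p of 0.000902. Lman1, a lectin receptor that carries glycoproteins out of the ER, rose 2.25-fold, from 26.7, 27.9 and 25.4 CPM to 80.5, 47.4, 54.1 and 58.5 CPM (adjusted p = 0.00358). The inner coat subunit Sec23a and the GTPase Sar1a, which starts coat assembly, did not pass, although every MIA rat lay above every control. Sec23a was at 34.2, 57.5 and 51.6 CPM and then 100.5, 66.3, 58.1 and 74.0 CPM (0.64 ± 0.25, adjusted p = 0.0692). Sar1a was at 251 to 275 and 316 to 399.8 CPM (0.48 ± 0.20, adjusted p = 0.0789). Both passed with library totals (1.08 and 0.92, adjusted p = 0.00534 and 0.00752).

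All 3 KDEL receptor genes rose. Kdelr3 (ENSRNOG00000013577) had the largest log2 change of the 36 genes, from 17.996, 9.94 and 8.59 CPM in control 2, 3 and 4 to 145, 94.3, 105 and 72.6 CPM in MIA 1 to 4 (8.54-fold, 3.09 ± 0.35, adjusted p = 0.00107). Kdelr2 went from 52.4, 40.3 and 38.1 CPM to 230.2, 138, 81.4 and 144 CPM (3.4-fold, 1.77 ± 0.34, adjusted p = 0.00541). Kdelr1 rose 1.71-fold, from 91.9 to 110.5 CPM to 143 to 204 CPM (adjusted p = 0.0168); its call ended without control 3 (0.0835) or control 4 (0.0643) and with the muscle covariate (0.51, 0.189). The 3 genes differed in the order of the MIA rats, with MIA 1 highest for Kdelr2 and Kdelr3 and MIA 2 for Kdelr1.

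The make-up of several paralog families differed between the groups. Shares of summed FPKM, a level per gene length, do not depend on library scaling. These families were chosen after the values were seen, and the shares were not tested. Kdelr3 made up 12.5%, 8.81% and 7.11% of the KDEL receptor transcripts in controls and 31.3%, 26.5%, 37.9% and 24.6% in MIA rats, while Kdelr1 went from 67.5% ± 4.27 (SD, n = 3) to 42.2% ± 4.93 (SD, n = 4). Sec24d made up 20.7% ± 2.3 of the 4 Sec24 genes in controls and 54.5% ± 4.5 in MIA rats. In controls Sec24c had the largest share (55.9% ± 1.32) and in MIA rats Sec24d. Sec61a1 made up 61.6% ± 5.46 of the 2 pore genes and then 88.4% ± 1.38. Sar1b held 85.6%, 83.2% and 84.7% of the Sar1 pair in controls and 40.7%, 29.1%, 57.9% and 35.8% in MIA 1 to 4. Among the MIA rats the share of Sar1b was lowest in MIA 2 and highest in MIA 3, as was the muscle marker share. MIA 1 had a larger share of Sar1b than MIA 4 but a smaller muscle marker share. The Sec23 pair overlapped between the groups, with Sec23a at 50.7% to 69.5% and 48.7% to 62.5%.

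**Figure D4:**
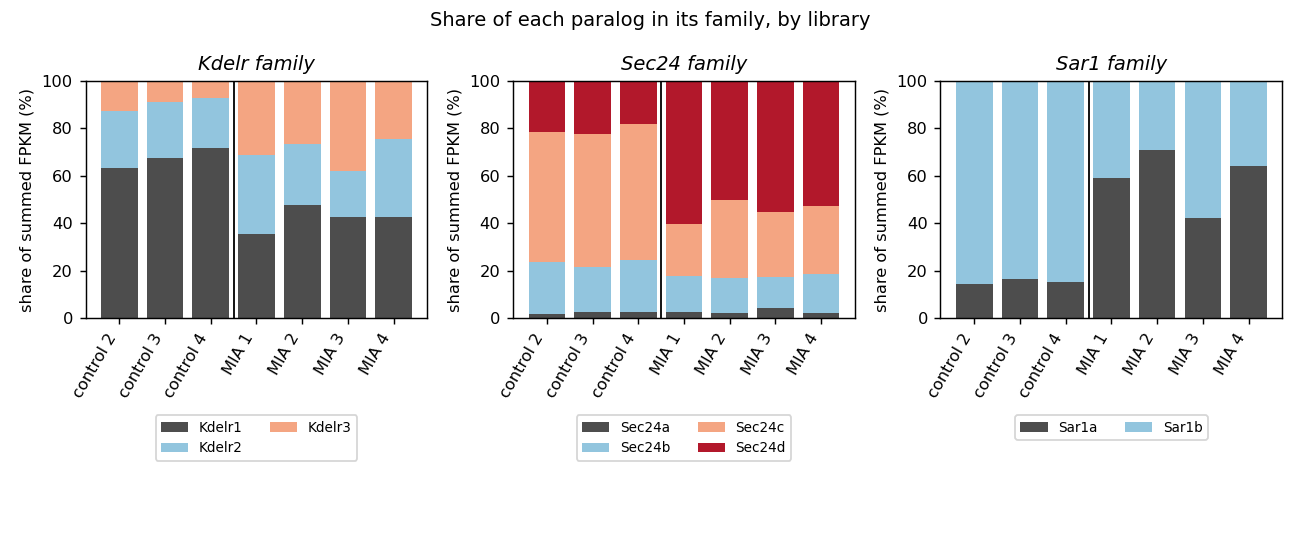
Share of each paralog in the summed FPKM of its family (stacked bars, %, 1 bar per library) for the KDEL receptors, Sec24 and Sar1. The shares of Kdelr3, Sec24d and Sar1a are larger in each of the 4 MIA libraries than in any of the 3 controls.

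Per gene length, Calr was the most abundant of the 36 genes in both groups, at 198 ± 44.1 FPKM in controls (SD, n = 3) and 627 ± 123 FPKM in MIA rats (SD, n = 4). FPKM here is relative to plain library totals. In controls the next were Atf4 (177 ± 28.4), Pdia3 (120.2 ± 35.2), Hspa5 (93.1 ± 31.1) and Herpud1 (88.6 ± 12.3), and within this order Calr and Atf4, Pdia3 and Hspa5, and Hspa5 and Herpud1 each lay within 1 SD of one another, while Atf4 and Pdia3 did not. In MIA rats Pdia3 (402 ± 102), Hspa5 (387 ± 189.7), Hsp90b1 (271 ± 114) and Pdia6 (211 ± 51.8) followed Calr, while Atf4 held rank 9, Herpud1 rank 23 and Ddit3 rank 30, from rank 13 in controls. Sec61b moved from rank 17 to 6, Kdelr3 from 31 to 17 and Creb3l1 from 33 to 22. Creb3l2, Atf6 and Ern1 held the 3 lowest ranks in both groups, with Atf6 at 2.91 ± 0.298 and 8.33 ± 2.3 FPKM and Ern1 at 3.88 ± 0.0507 and 3.83 ± 0.754 FPKM.

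The MIA rats were not alike. MIA 3 had the lowest CPM of 24 of the 36 genes and MIA 1 the highest of 15. Among the 12 chaperones MIA 3 was lowest for 8 and MIA 4 highest for 8, whereas among the 8 translocon genes MIA 1 was highest for 4. The median log2 difference of the 36 genes from the control mean was 1.45, 0.94, 0.67 and 1.27 in MIA 1 to 4. MIA 3 also had the lowest share of fibroblast markers (4.41%, against 7.5% to 7.66%), the highest of neutrophil markers (0.0711%, against at most 0.00555%) and the highest of muscle markers (5.63%). Its share of plasma and B cell markers was the highest as well (0.00814%, against at most 0.00169%). MIA 2, with a muscle marker share of 0.0604%, had the highest CPM of 8 of the 36 genes and the lowest of 4. The part of these markers in the differences was not tested. The coefficient of variation among MIA rats was widest for Hyou1 (54.8%), Hspa5 (49.4%), Hsp90b1 (42.0%), Kdelr2 (41.3%) and Herpud1 (41.2%), and narrowest for Sar1a (9.91%), Ssr3 (11.4%) and Creb3l2 (12.0%).

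A wider list of 112 further genes of the same roles, of which 106 were found and all but 5 tested, was also higher more often than lower. Of those tested, 54 rose, 7 fell and 40 did not pass, and their median log2 change was 0.67, against 1.12 for the 36 genes and 0.07 for all genes. Without control 4 33 rose and 4 fell, beside 1642 and 1757 of all 14482 genes then tested. With the muscle covariate these counts were 28 and 4, beside 1544 and 1247 of all 14054 genes. By role, 18 of 25 chaperones and modifying enzymes rose, 9 of 13 retrieval genes, 9 of 18 export genes, 10 of 20 translocon genes, 5 of 13 degradation genes and 3 of 12 sensors and stress factors. Over all tested genes 21.3% rose and 19.6% fell, and the share that rose among the sensors and stress factors was near the former. Genes with the smallest p in each role are named here.

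Among the sensors and stress factors, Eif2ak3, which encodes PERK, was at 15.3, 14.7 and 13.99 CPM in controls and at 34.2, 46.9, 33.3 and 39.3 CPM in MIA rats (2.62-fold, 1.39 ± 0.17, adjusted p = 0.0014). Ppp1r15a, a target of this branch that restarts translation, went from 73.3, 131.8 and 95.7 CPM to 49.4, 43.8, 49.7 and 59.4 CPM (1.98-fold lower, −0.99 ± 0.22, adjusted p = 0.00891), and its call ended with library totals and with the muscle covariate. On the deposited FPKM, Ppp1r15a was higher in MIA 4 (28.6) than in control 2 (27.3). In the degradation group Edem1, which hands misfolded glycoproteins to the degradation complex, rose 3.8-fold (1.93 ± 0.21, adjusted p = 0.00101).

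Among the folding genes Rcn1, a calcium-binding protein of the ER lumen, rose 4.74-fold (2.25 ± 0.28, adjusted p = 0.00139) and Selenos, a selenoprotein of the ER membrane, 2.42-fold (adjusted p = 0.0026). Ostc and Stt3b, subunits of the enzyme that attaches sugar chains, rose 3.01-fold and 1.83-fold (adjusted p = 0.00218 and 0.00492), and the call for Stt3b ended with the muscle covariate (0.73, adjusted p = 0.0619). In vesicle traffic, Sec22b, a fusion protein between ER and Golgi, rose 2.23-fold (adjusted p = 0.00275), as did the coat subunit Copb1 (adjusted p = 0.00223), and the cargo receptor Tmed3 rose 3.89-fold (1.96 ± 0.25, adjusted p = 0.00148). Of the 18 further export genes 2 fell, and of these Sar1b is named here. It fell 5.36-fold, from 482, 416 and 422 CPM to 80.8, 46.7, 132.6 and 68.0 CPM (−2.42 ± 0.34, adjusted p = 0.00185). Among the MIA rats Sar1b was lowest in MIA 2 and highest in MIA 3, the rats with the least and the most muscle markers. MIA 1 had more Sar1b than MIA 4 but a smaller muscle marker share (2.92% against 3.19%). The call for Sar1b held with the muscle covariate (−1.76, adjusted p = 0.0168).

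**Figure D5:**
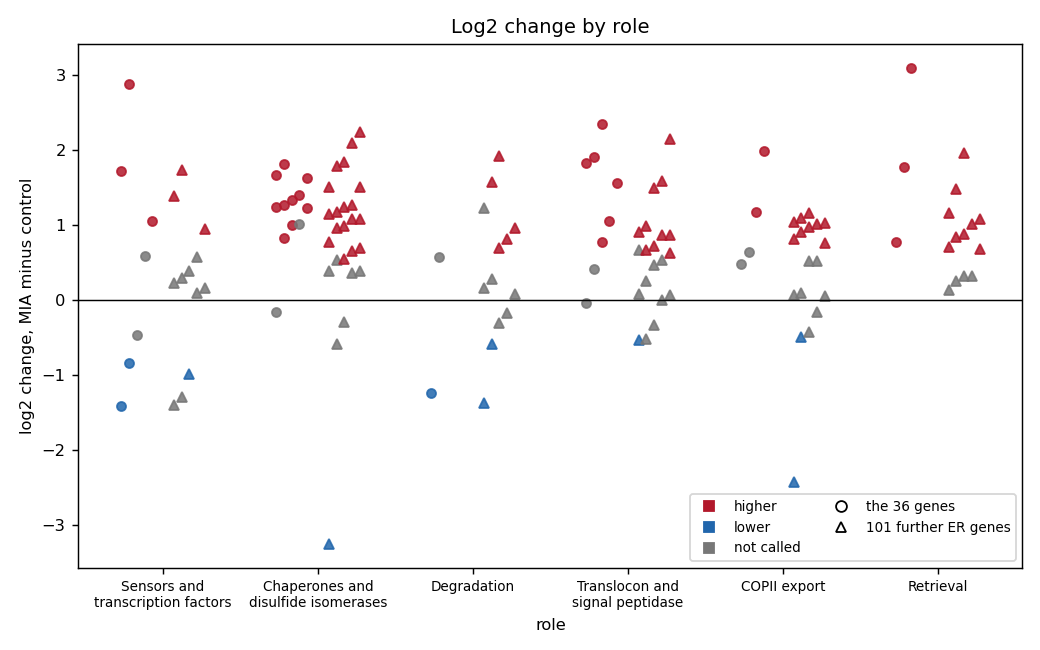
Log2 change between MIA and control (y axis) by role (x axis) for the 36 genes (circles) and the further ER genes (triangles), coloured by call. Rises outnumber falls in each role of the further genes, and of the 36 genes the 3 that fell belong to the sensors and to degradation.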

How the data were processed

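One library was made per rat from 1.5 µg of synovial RNA (3 control, 4 MIA). HISAT2, HTSeq 0.11.2, DESeq2 1.26.0 and the build Rnor_6.0 appear, without roles, in the submitters' processing notes. Per the file headers, the deposited table holds counts and FPKM for each gene and library. The deposited FPKM equal counts per length and library total, with 1 length per gene for 18593 of 18593 genes (tolerance 1e-09). The strand setting is not stated, so overlapping genes are uncertain. Nothing in the labels ties rats to batches, and p-values measure only the spread between these rats.

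The count analysis used edgeR 4.0.16 in R 4.3.3: filterByExpr kept 14054 genes, TMM scaled the libraries, and quasi-likelihood F tests were adjusted by Benjamini-Hochberg over all genes, with 0.05 as the threshold. Biological variation between libraries was 36.7% (common coefficient). Each SE is the size of the log2 change over the root of F. Alternatives used limma 3.58.1, DESeq2 1.42.0, other scalings and filters, the muscle marker level as a covariate, a replicate block and leaving out each library. Members and lists were chosen with earlier results of these data known. All 36 members may be named, and of other ER genes the 2 with the smallest p per role, of which 1 is not reported here; of marker lists, the gene with the most counts. Promoters are from RefSeq (GRCr8). Protein sequences were not used here. Figures were drawn with matplotlib 3.10.9.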

Additional observations from a re-analysis of the deposited data

Results flagged for a closer look

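A library that lay far from the other 3 MIA rats was found for 2 of the 48 genes checked, the 36 described genes and 12 further ER genes with the smallest p in their roles, by Dixon's gap test. By chance about 1 in 20 groups would be so marked. For Copb1, MIA 1 had 197 CPM against 154 to 159 CPM in the remaining rats. For Stt3b, MIA 3 had 57.7 CPM against 75.6 to 78.6 CPM. None of the 36 genes themselves had such a library.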

How the results depend on the processing

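All 27 called genes of the 36 kept their direction in all 18 alternatives, and 14 kept their call in all of them: Atf6, Ddit3, Creb3l1, Creb3l2, Sdf2l1, Manf, Sec61a1, Sec61b, Ssr2, Tram1, Sec24d, Lman1, Kdelr2 and Kdelr3. Over all genes, 2998 were higher and 2753 lower; these counts were 5258 and 1480 under library totals, 4959 and 1608 in the limma fit of log2(FPKM + 1), 5140 and 1558 in that of log2(FPKM + 0.1), and 1544 and 1247 with the muscle covariate. With that covariate 15 of the 36 genes were higher and 1 lower, and 28 and 4 of the further ER genes. Of the further genes 3 were lower under library totals or either FPKM scale. The median log2 change of the 36 genes was 1.56 with library totals and 1.51 on log2(FPKM + 0.1). Dnajb9 changed sign with library totals (0.27) and on the FPKM scales (0.23 and 0.25), and Spcs2 likewise (0.38, 0.37 and 0.39); the cause was not tested. Leaving out 1 library gave 1642 to 2937 genes higher and 1757 to 2787 lower, 14 to 27 of the 36 higher and 2 to 3 lower, and 33 to 59 of the further genes higher and 4 to 7 lower, the low ends mostly without control 4. The median of the 36 genes was then 1.04 to 1.22, and Spcs2 was −0.10 to 0.040, positive without control 2 (0.025) or MIA 3. With 1 control left out, the control mean rests on 2 rats.

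The rat numbers 2 to 4 occur in both groups, but same-numbered rats deviated together only weakly (correlations 0.245, 0.0967 and 0.0425), controls 2 and 3 correlated best with the MIA rat of their own number, and control 4 with MIA 3. With the number as a replicate block 16 of the 36 genes were higher and 2 lower, and 42 and 6 of the further genes, with 2301 and 2254 of all genes; this pairing is not given by the labels.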

Other observations

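Some further ER genes are given here as values; they were chosen after their values were seen. Cdnf, the paralog of Manf, was at 83.0, 94.5 and 103.3 CPM in control 2, 3 and 4 and at 10.7, 1.53, 16.99 and 10.02 CPM in MIA 1 to 4 (−3.25 ± 0.60, adjusted p = 0.00448), so that the pair went in opposite directions. Among the MIA rats Cdnf was lowest in MIA 2 and highest in MIA 3, as was the muscle marker share. MIA 1 had slightly more Cdnf than MIA 4 but a smaller muscle marker share. The call for Cdnf held in all 18 alternatives, the muscle covariate among them. Asns, an asparagine synthetase gene known as a target of ATF4, rose 3.31-fold (1.73 ± 0.40, adjusted p = 0.0105), from 4.31 to 7.98 CPM in controls to 9.58 to 27.6 CPM in MIA rats, although Atf4 itself was lower; its call ended without control 4 (adjusted p = 0.0518) and with the muscle covariate. Of other stress genes of this branch, Atf3 was at 34.6, 198.8 and 67.5 CPM in controls and 21.3 to 80.2 CPM in MIA rats (adjusted p = 0.133), Chac1 at 5.89 to 34.9 and 4.73 to 8.12 CPM (0.0937) and Trib3 at 1.31 to 1.85 and 1.57 to 2.32 CPM (0.519), and none of the 3 passed.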
